A study of Patiria miniata with 18 samples.

Results

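The RNA of posterior fragments of larval bat stars (Patiria miniata) was compared with that of uncut larvae 6 days after bisection (dpb). The comparison takes 2 libraries of regenerating posterior segments and 2 libraries of uncut controls, chosen by the segment and time point in their labels, so 4 of the 18 libraries of the series are compared directly. Bipinnaria larvae, the feeding larvae of sea stars, were used 7 days after fertilization. They were cut across the foregut midway along the anterior-posterior axis, and both fragments were reared beside uncut siblings of the same age. Each library was made from a pool of about 300 sibling larvae or fragments, and replicates 1 and 2 carry the same number in uncut larvae and in fragments. The larvae carry no transgene or mutation, and neither group received an agent. The other 14 libraries, 2 for each remaining combination of tissue (uncut, anterior or posterior) and time (about 3 h post bisection, hpb, or 3 or 6 dpb), entered the fit, and some of these, from posterior fragments at the earlier times and from anterior fragments of the same age, were used to show where the posterior fragments at 6 dpb differ.

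A posterior fragment keeps the stomach, the intestine and the posterior ciliary band, and lacks the mouth, the oral lobe and the anterior tip of the larva with its apical nervous system. To become a whole larva again it has to make anterior structures from posterior cells. In sea star and sea urchin embryos the ends of this axis are set by Wnt ligands and Frizzled receptors, with a posterior territory that makes Wnt ligands and an anterior territory that expresses regulators such as Six3, Foxq2, Rx and the receptor Frizz5/8. Regrowth in many animals also draws on cell division, on BMP and TGF-beta signals and on the remodeling of extracellular matrix.

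The 6 loci shown here are those on which the account of the axis, of the late regulators and of the cilia turns. Each sequence is the stretch of the transcript that the study's Nanostring probe for the gene was designed on, printed 5′ to 3′ and here used to tell which locus carries the name. Positions are those of the locus on the scaffolds of the P. miniata v1.0 assembly. Frizz5/8 (XLOC_051341, a Frizzled receptor of the anterior territory) lies on scaffold 4579 from 35051 to 40020 on the minus strand. Rx (XLOC_071796, a homeobox factor of the anterior territory) lies on scaffold 8 from 226399 to 239038 on the plus strand. Wnt3 (XLOC_012387, a Wnt ligand) lies on scaffold 13556 from 5297 to 9761 on the plus strand. Wnt5 (XLOC_027835) lies on scaffold 2010 from 15388 to 24303 on the minus strand. It is named Wnt5 in the authors' table while the probe that matches it is named wnt4, and the table gives the name Wnt5 to another locus too, so the identity of this Wnt ligand is uncertain. The study's probe table also marks this probe as not working, and it serves here only to place the locus. Lin28 (XLOC_008581, an RNA-binding regulator of growth) lies on scaffold 12359 from 1633 to 7120 on the plus strand. FoxJ1 (XLOC_049617, the master regulator of motile cilia) lies on scaffold 4327 from 58771 to 68516 on the minus strand.
Frizz5/8: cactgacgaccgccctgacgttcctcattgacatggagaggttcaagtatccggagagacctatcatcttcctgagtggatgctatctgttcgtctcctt
Rx: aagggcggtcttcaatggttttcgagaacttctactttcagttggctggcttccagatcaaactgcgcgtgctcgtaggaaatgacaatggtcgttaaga
Wnt3: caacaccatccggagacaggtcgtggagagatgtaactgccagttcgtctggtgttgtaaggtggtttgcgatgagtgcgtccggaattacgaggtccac
Wnt5: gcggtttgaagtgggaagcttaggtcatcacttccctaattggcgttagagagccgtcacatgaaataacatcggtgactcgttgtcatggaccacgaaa
Lin28: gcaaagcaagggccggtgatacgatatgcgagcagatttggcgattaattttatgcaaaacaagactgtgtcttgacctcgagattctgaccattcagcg
FoxJ1: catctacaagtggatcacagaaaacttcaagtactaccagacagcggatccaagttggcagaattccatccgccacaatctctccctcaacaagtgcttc

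Counts on loci were 36152675 and 16370600 in the 2 libraries of uncut larvae and 27472243 and 21676324 in those of posterior fragments, against a range of 15868104 to 36152675 with a median of 20631998 over all 18 libraries. Levels are in CPM, the counts of a locus relative to the total of its library, scaled by the trimmed mean of M values (TMM). They compare 1 locus between libraries, not different loci, which differ in length. A difference is the fitted log2 ratio of posterior fragments over uncut larvae, given with its standard error (±), and a locus was called where edgeR gave it a Benjamini-Hochberg adjusted p under 0.05 over 31798 tested loci, in a quasi-likelihood F test. Replicate values are given as replicate 1 and then replicate 2. The strand setting of the read counting was not stated, so the values of the 3418 tested loci (10.7%) that overlap another tested locus are uncertain, and such loci are pointed out. Because whole fragments were sequenced, fewer cells of a type and less RNA per cell cannot be told apart in any value below.

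A marker of the posterior end and one of the gut went with the labels of the fragments. Hox11/13a (XLOC_051968), a posterior Hox gene, was at 12.6 and 21.1 CPM in posterior fragments, 11.4 and 7.66 CPM in uncut larvae and 0.103 and 0.302 CPM in anterior fragments. Anpep (XLOC_050610), an aminopeptidase of the gut lining, was at 444 and 453 CPM in posterior fragments, 423 and 333 CPM in uncut larvae and 1.52 and 2.11 CPM in anterior fragments.

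At 6 dpb the posterior fragments differed from uncut larvae at 1399 loci, 4.4% of those tested. 350 loci were higher (1.1%) and 1049 were lower (3.3%), with median differences of 1.49 and -1.37 among the called loci on the log2 scale and 0.02 over all tested loci. 310 of the higher and 856 of the lower loci differed by more than 2-fold. Of the called loci, 1391 differed in the same direction in both replicate pairs, and in 1041 the posterior and uncut values did not overlap, which holds for 28.6% of all tested loci. 615 carried a gene name and 784 did not. These counts rest on the pairing of fragments with uncut larvae by replicate number within a time point. Without that block edgeR called 0 loci as higher and 2 as lower, with 659 at an unadjusted p under 0.05 in either direction (with the block, 6188 or 19.5%), and without replicate 1 or replicate 2 it called 105 and 213 or 87 and 336.

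Gene groups that differed fell on 2 sides. Loci for DNA replication, mitosis, BMP and TGF-beta signals, extracellular matrix and ribosome assembly lay mostly above uncut larvae, and loci for cilia lay mostly below them. Loci for muscle and for ribosomal proteins had medians close to that of all tested loci.

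**Figure D1:**
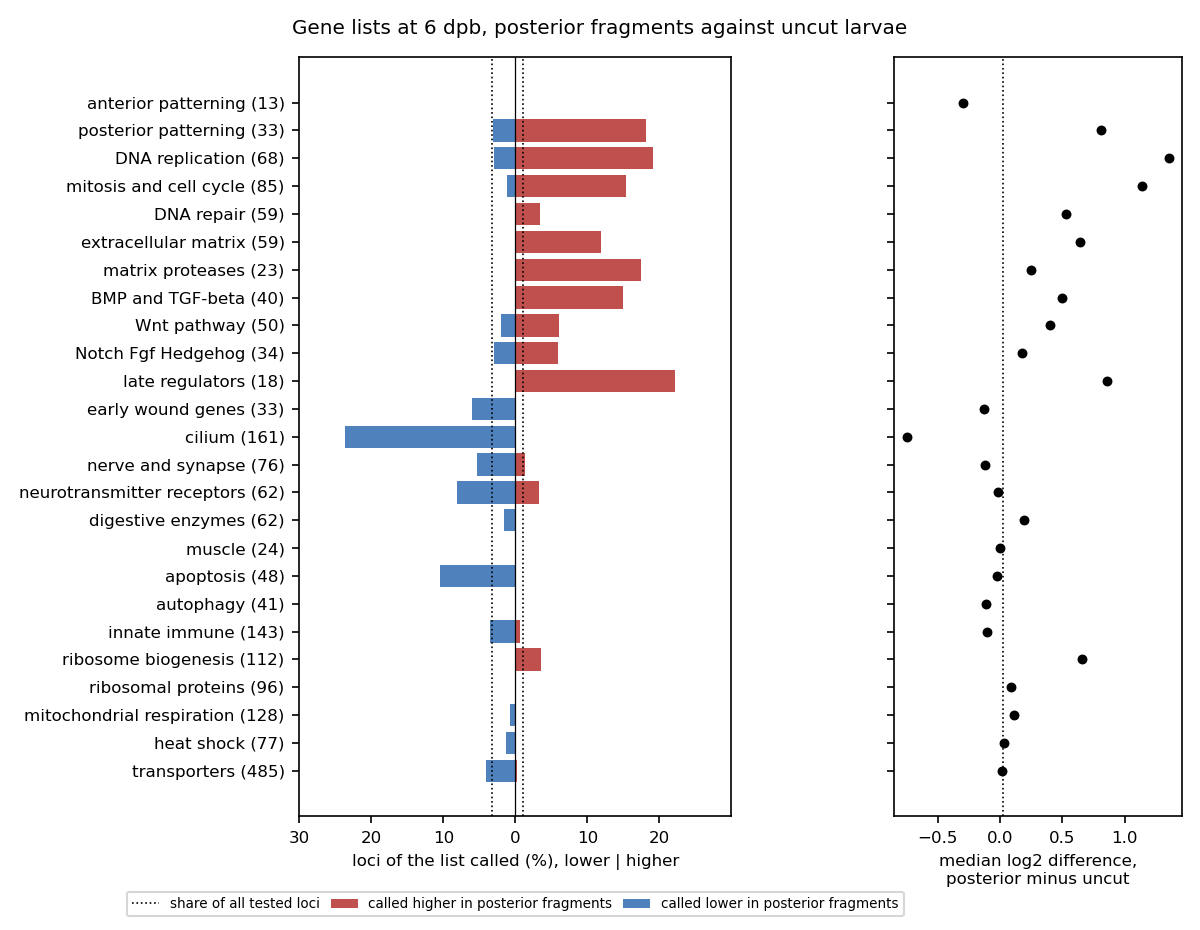
The plot shows the 25 gene lists at 6 dpb, with bars for the percentage of each list's loci called higher (right) or lower (left) in posterior fragments at an adjusted p under 0.05, points for the list's median log2 difference against uncut larvae, dotted lines for all tested loci, and the number of loci in parentheses. The medians of DNA replication (1.36) and mitosis (1.14) lie farthest above 0 and that of cilium (-0.75) farthest below, while those of muscle (0.00) and ribosomal proteins (0.09) lie near that of all tested loci (0.02).

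Most loci of the anterior territory, which the cut had removed, lay nearer to uncut larvae at 6 dpb than just after the cut. Of the 13 tested loci of anterior patterning genes, 0 were called by edgeR in either direction at 6 dpb (3 higher and 4 lower at an unadjusted p under 0.05, against 7.75% and 11.7% of all tested loci, and 2 higher and 0 lower by DESeq2). The median difference of the list had been -2.88 at 3 hpb and -1.19 at 3 dpb, and at 6 dpb it stood at -0.30.

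Frizz5/8 was at 294 and 165.7 CPM in posterior fragments and at 369 and 222 CPM in uncut larvae. The values of the groups overlapped, and the difference was -0.37 ± 0.20 (adjusted p = 0.339). It had been -3.48 at 3 hpb and -2.13 at 3 dpb, and the change of 3.11 ± 0.28 from 3 hpb to 6 dpb passed the test (adjusted p = 0.00128).

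Rx followed the same course. Its levels were 20.5 and 10.8 CPM in posterior fragments and 35.9 and 13 CPM in uncut larvae, and these overlapped. The difference of -0.55 ± 0.25 (adjusted p = 0.248) came after -4.22 at 3 hpb and -2.87 at 3 dpb, and its change since 3 hpb was 3.66 (adjusted p = 0.00308). The other locus named Rx, XLOC_016040, lay lower at 6 dpb, at -0.83 ± 0.32, and was not called (adjusted p = 0.178). It had been at -4.68 at 3 hpb and -3.68 at 3 dpb.

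The differences of 5 other anterior regulators at 6 dpb ran from -1.05 to 0.55, and no test compared these genes with each other. Nkx2.1 (XLOC_077199), a homeobox factor of the anterior neuroectoderm, was at 69.3 and 44 CPM against 88.2 and 78.8 CPM in uncut larvae, a difference of -0.58 ± 0.25 after -2.88 at 3 hpb. Zic (XLOC_064379), a zinc finger factor, was at 21 and 9.18 CPM against 26.6 and 18.8 CPM, a difference of -0.65 ± 0.40 after -3.08. Lhx2/9 (XLOC_034125), a LIM homeobox factor, was at 4.11 and 2.69 CPM against 9.38 and 4.95 CPM and had the lowest value among the genes of this territory that the study names, -1.05 ± 0.37 after -3.88. None of these 3 differences passed the test at 6 dpb (adjusted p = 0.226, 0.428 and 0.136), and the change since 3 hpb passed it for each. Six3 (XLOC_067646), a homeobox factor at the top of the anterior program, was at 68.2 and 78.9 CPM against 88.6 and 77.7 CPM, so its groups overlapped at a difference of -0.20 ± 0.26. Dkk1 (XLOC_021595), a secreted inhibitor of Wnt signals, was at 38.3 and 24.4 CPM against 29.6 and 14.6 CPM, a difference of 0.55 ± 0.23 (adjusted p = 0.211) after -1.93 at 3 hpb. Otx (XLOC_064300) and a locus of Hbn (XLOC_032169) lay above this range, at 0.66 ± 0.20 and 1.31 ± 0.38 after 0.50 and -4.33 at 3 hpb. Their groups did not overlap, and neither was called (adjusted p = 0.0894 and 0.0764). The other Hbn locus was at -0.30 ± 0.23 and FoxG (XLOC_037622) at 0.23 ± 0.24.

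Foxq2 (XLOC_013717), a forkhead factor of the apical tip, differed between the replicates. It was at 25.6 and 13.1 CPM in posterior fragments and at 4.48 and 17.5 CPM in uncut larvae, above them in replicate 1 by 2.49 and below them in replicate 2 by 0.41 on the log2 scale. The pooled difference of 1.06 ± 0.74 did not pass the test (adjusted p = 0.494), and neither did its change since 3 hpb.

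Posterior fragments still held less of the anterior territory's RNA than anterior fragments of the same age. Frizz5/8 was at 965 and 807 CPM in anterior fragments, and the difference of posterior from anterior fragments was -2.01 (adjusted p = 5.8e-05). Of the 13 loci of the list, 8 were lower in posterior than in anterior fragments, where 7.23% of all tested loci were lower and 5.68% were higher. Of the 45 genes of the study's axis and late clusters that were matched, 14 changed between 3 hpb and 6 dpb relative to uncut larvae, all upward, where 2.08% of all tested loci did so and 5.37% changed in either direction. Without replicate 2 the change of 3 of them was called.

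**Figure D2:**
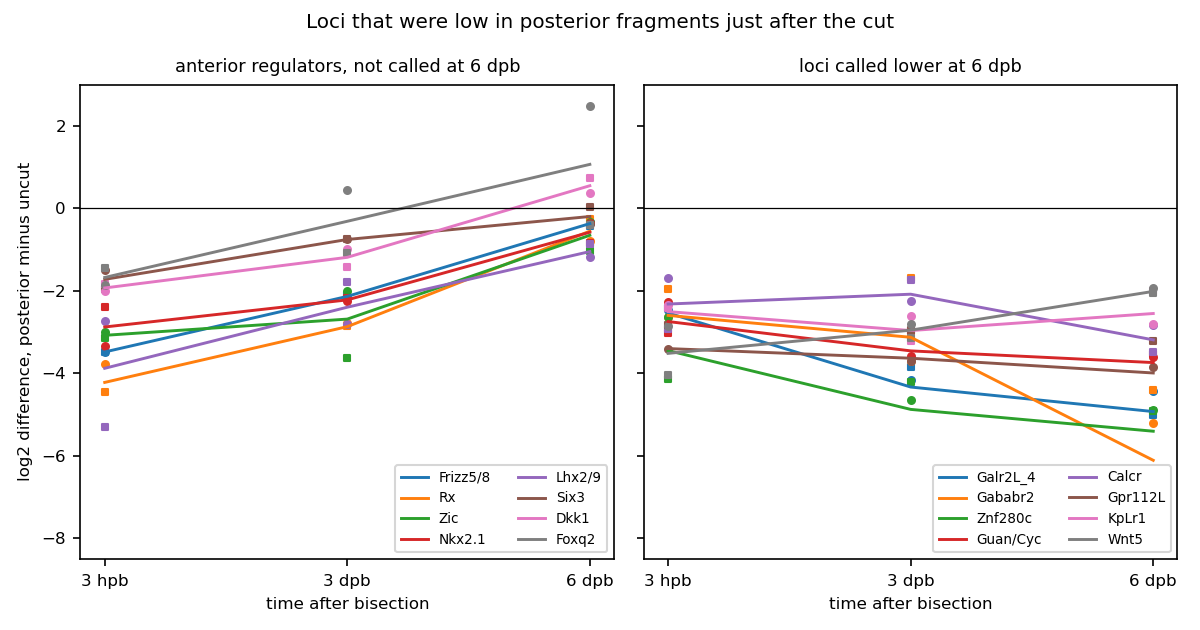
The plot shows the log2 difference of posterior fragments against uncut larvae (vertical axis) at 3 hpb, 3 dpb and 6 dpb (horizontal axis) for loci that were low just after the cut, with a line for each locus and points for its 2 replicate pairs. Frizz5/8 and Rx go from -3.48 and -4.22 to -0.37 and -0.55, while Galr2L_4 and Calcr are at -4.93 and -3.19 at 6 dpb.

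Some loci that had been low just after the cut were still low at 6 dpb. In a description made after the values had been seen, 497 loci were more than 2-fold lower in posterior fragments than in uncut larvae at 3 hpb with an adjusted p under 0.05. Their median difference went from -1.51 at 3 hpb through -0.21 at 3 dpb to -0.01 at 6 dpb, and 386 of them were within 2-fold of uncut larvae at 6 dpb. 74 of them (14.9%) were still called lower at 6 dpb, against 3.3% of all tested loci, and 55 were more than 4-fold lower. Only 22 of these 74 carry a gene name. The 687 loci that had been higher at 3 hpb were at a median of 1.45, 0.29 and -0.10 at the 3 times, with 15 called higher and 42 lower at 6 dpb.

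Receptors were among the named loci that stayed low. Galr2L_4 (XLOC_015515), named after the receptor for the neuropeptide galanin, was at 0.596 and 0.0842 CPM in posterior fragments (20 and 2 counts) and at 14.7 and 5.55 CPM in uncut larvae (635 and 84 counts). The groups lay far apart and the difference of -4.93 ± 0.33 (adjusted p = 2.0e-04) followed values of -2.54 at 3 hpb and -4.33 at 3 dpb. It was called without either replicate, at -5.95 without replicate 1 and -4.61 without replicate 2.

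Calcr (XLOC_053578), named after the calcitonin receptor, was at 1.85 and 1.30 CPM against 13.7 and 15.6 CPM in uncut larvae and 27.2 and 35.4 CPM in anterior fragments. It fell by 3.19 ± 0.32 on the log2 scale relative to uncut larvae (adjusted p = 0.00145). Loci named for receptors of the inhibitory transmitter GABA were called lower at Gababr2, Gabbr2L and 2 of 5 Gabbr1_8 loci, and the first 2 names were nearly without reads at the locus called. Gababr2 (XLOC_023046) had 1 and 2 counts in posterior fragments against 188 and 55 in uncut larvae, a ratio of 79.4 between uncut and posterior levels with a 95% counting interval of 26.9 to 388. The other 3 loci of that name were at -0.47, -0.41 and 0.29 and were not called. Gabbr2L (XLOC_005385) had 1 and 0 counts against 136 and 24, a ratio of 157 with an interval of 27.8 to 6235. These intervals cover counting error only. Tph (XLOC_036224), the tryptophan hydroxylase that marks serotonergic neurons, was at 154 and 173 CPM against 201 and 162 CPM, and its overlapping groups differed by -0.15 ± 0.20 (adjusted p = 0.768).

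Other loci of this kind were Znf280c (XLOC_030912), named after a zinc finger protein, at 0.239 and 0.168 CPM against 9.66 and 7.79 CPM (-5.40 ± 0.45, adjusted p = 0.000433), and Guan/Cyc (XLOC_037449), named after guanylate cyclases, at 1.04 and 0.463 CPM against 13.7 and 6.27 CPM (-3.74 ± 0.28, adjusted p = 0.000247). Both had been more than 4-fold lower at 3 hpb and at 3 dpb. Gpr112L (XLOC_021358), named after an adhesion receptor, was at 0.239 and 0.253 CPM against 4.67 and 3.1 CPM (-3.99 ± 0.39), and the other 4 loci of that name were not called. Of the 62 loci of transmitter and neuropeptide receptors, 5 were lower (8.06%, against 3.3% of all tested loci). In the same list 2 were higher (3.23%, against 1.1% of all tested loci). The differences ran from -6.81 to 2.28, with a list median of -0.02. Without replicate 1 or replicate 2 there were 3 or 4 lower ones.

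Loci of 3 catecholamine pathway genes were called lower. Th (XLOC_011290), tyrosine hydroxylase, which makes the precursor of dopamine, was at 2.68 and 4.63 CPM against 8.43 and 10.6 CPM in uncut larvae, a difference of -1.39 ± 0.34 (adjusted p = 0.0453), while the other locus of that name was at 0.08 ± 0.28. Dbh_1 (XLOC_074080), dopamine beta-hydroxylase, was at 0.417 and 0.463 CPM against 2.56 and 12 CPM, a difference of -3.81 ± 0.69 (adjusted p = 0.0146) at a locus that overlaps another. Slc18a2 (XLOC_021472), the transporter that loads monoamines into vesicles, was at 5.78 and 5.47 CPM against 13.9 and 21.1 CPM, a difference of -1.63 ± 0.36 (adjusted p = 0.0299). All 3 were higher in anterior fragments, at 15.2 to 24.9 CPM for Th, than in posterior ones in every library. In the list of 76 nerve and synapse loci, 4 were lower (5.26%, against 3.3% of all tested loci) and 1 was higher (1.32%, against 1.1%), with a median of -0.13, and without replicate 1 only 1 was lower and without replicate 2 none was. The 1 higher locus was SoxC (XLOC_031651), a factor of neural progenitors in several animals, at 217 and 171 CPM against 46.9 and 59.9 CPM (1.84 ± 0.35, adjusted p = 0.0177).

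At the posterior end 28 of 33 loci lay above uncut larvae and 5 lay below them. Of these 33 tested loci of posterior patterning genes, 6 were higher (18.2%, against 1.1% of all tested loci) and 1 was lower (3.03%, against 3.3%), with a median of 0.81. The 6 carry the names Wnt3 and Nk1 only, and without replicate 1 or replicate 2 there were 2 or 3. The median of the list had already been 0.74 at 3 hpb and was 0.50 at 3 dpb. None of the 33 loci passed the test of change since 3 hpb, which 5.37% of all tested loci did. Because posterior tissue is the tissue the fragment kept, its larger share of the fragment and its regulation cannot be told apart in these values.

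Wnt3 was higher than in uncut larvae at all 3 of its loci. XLOC_012387 was at 46.1 and 20.1 CPM in posterior fragments and at 9.01 and 4.16 CPM in uncut larvae. Every posterior value lay above every uncut one, and the difference was 2.35 ± 0.41 (5.09-fold, adjusted p = 0.0125), after 1.08 at 3 hpb and 1.85 at 3 dpb. In anterior fragments Wnt3 was at 11.2 and 1.31 CPM. The other 2 loci of that name were higher too, XLOC_026008 at 27.8 and 43.9 CPM against 5.11 and 7.33 CPM and XLOC_051299 at 6.74 and 5.30 CPM against 1.11 and 0.924 CPM. The change since 3 hpb passed the test at none of the 3 loci (adjusted p = 0.188, 0.0882 and 0.222 in the order given). Without replicate 1 the first locus was at 2.26 (adjusted p = 0.0335) and without replicate 2 at 2.36 (adjusted p = 0.0186).

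Nk1, a homeobox factor of the posterior territory, was called at 3 of its 5 loci, with differences of 2.01, 2.11 and 2.49. They had already been at 2.46, 2.64 and 2.28 at 3 hpb, and the change since then passed the test at none of them. These 3 have few counts, such as XLOC_010105 at 4.62 and 2.15 CPM against 0.901 and 0.396 CPM. Its locus with the most counts, XLOC_068417, at 79.6 and 67.8 CPM against 41.0 and 38.7 CPM, overlaps another locus and was not called (0.87 ± 0.35, adjusted p = 0.19).

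The locus of Wnt5 that matches the wnt4 probe went the other way. It was at 10.3 and 2.90 CPM in posterior fragments, 39.6 and 12.3 CPM in uncut larvae and 63.6 and 18.2 CPM in anterior fragments. It fell by 2.01 ± 0.32 on the log2 scale (adjusted p = 0.00905), after -3.52 at 3 hpb and -2.95 at 3 dpb. The other locus of the name Wnt5, XLOC_009399, was at 53.5 and 57.3 CPM against 36.1 and 32.3 CPM in uncut larvae and only 11.8 and 8.75 CPM in anterior fragments, a difference of 0.70 ± 0.32 (adjusted p = 0.255). The 2 loci that share this name thus lay on opposite sides of uncut larvae and on opposite sides of the anterior fragments.

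Frizz9/10, a Frizzled receptor of the posterior territory, was at 270 and 169 CPM at its probe locus XLOC_064336 against 99.3 and 66.5 CPM in uncut larvae and 15.9 and 2.11 CPM in anterior fragments. The posterior and uncut values did not overlap, and the difference of 1.39 ± 0.41 missed the threshold (adjusted p = 0.0782). The Hox and Cdx genes of the posterior end were not called either. Hox11/13a differed by 0.75 ± 0.33, Hox11/13b (XLOC_054934) by 0.82 ± 0.64, Hox8 (XLOC_051969) by 1.34 ± 0.44, Lox (XLOC_038846) by 0.38 ± 0.34 and Cdxl (XLOC_038845) by 0.52 ± 0.40. Bra (XLOC_062556), the T-box factor brachyury, was at 42.3 and 41.3 CPM against 20.4 and 26.9 CPM, a difference of 0.81 ± 0.33 (adjusted p = 0.201). Wnt16 (XLOC_054546), which had been 2.40 higher at 3 hpb on the log2 scale, was at 17.1 and 11.8 CPM against 5.17 and 15.4 CPM (0.54 ± 0.56). Wnt8 was at -0.46 ± 0.34 at XLOC_028135 and at -0.51 ± 0.31 at its other locus. The 2 loci named Wnt7 lay on opposite sides of uncut larvae, and their identity is uncertain as well, since XLOC_033394 matches a probe named wnt2. XLOC_033394 was at 19 and 16.6 CPM against 28.7 and 29.6 CPM, with no overlap (-0.71 ± 0.30, adjusted p = 0.223). XLOC_053296 was at 18.1 and 24.1 CPM against 15.2 and 8.78 CPM (0.89 ± 0.48, adjusted p = 0.346) and was higher than in anterior fragments by 2.61 (adjusted p = 0.00607). Eve (XLOC_034294), a homeobox factor, was at 1.19 ± 0.65 and GataC (XLOC_034419) at 0.20 ± 0.27. Against anterior fragments, 27 of the 33 loci were higher in posterior fragments (5.68% of all tested loci were) and 1 was lower.

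Among the 25 lists, those of cell division held the most loci called higher. Of 68 loci of DNA replication genes, 13 were higher (19.1%, against 1.1% of all tested loci) and 2 were lower, with a median of 1.36. Of 85 loci of mitosis and cell cycle genes, 13 were higher (15.3%) and 1 was lower, with a median of 1.14. 61 of the former and 79 of the latter lay above uncut larvae. The medians had been -0.69 and -0.55 at 3 hpb and 0.07 and -0.14 at 3 dpb, so that the list as a whole lay below uncut larvae just after the cut, near them at 3 dpb and above them at 6 dpb. The call counts depended on the replicates. Without replicate 1 there were 4 and 9 higher loci in the lists and without replicate 2 there were 2 and 0, while DESeq2 called 32 and 26.

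In a group put together after the values were seen, 10 of 29 loci for thymidine and deoxynucleotide synthesis, which supply DNA precursors, were higher (1.1% of all tested loci were) and 0 were lower by edgeR, with a median of 1.27. Another 10, among them a locus of Shmt2 at -1.12 and one of Rrm2_1 at -0.52, lay below uncut larvae and were not called. Rrm2_1 (XLOC_073925), the small subunit of ribonucleotide reductase, was at 66.0 and 27.2 CPM against 16.3 and 2.31 CPM, a difference of 2.84 ± 0.44 (7.15-fold, adjusted p = 0.00804). Rrm1 (XLOC_063225), its large subunit, was at 57.6 and 28.5 CPM against 23 and 5.08 CPM (1.97 ± 0.44, adjusted p = 0.0315). Both were below uncut larvae at 3 hpb, at -0.99 and -0.98. Tk1 (XLOC_074466), a thymidine kinase, was at 2.80 and 1.22 CPM against 0.670 and 0.132 CPM.

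Pola, Pole and Wdhd1, which work at the replication fork, rose as well. Pola (XLOC_073712), the catalytic subunit of the polymerase that primes new strands, was at 8.17 and 4.71 CPM against 1.94 and 0.726 CPM (2.39 ± 0.59, adjusted p = 0.0445). Pole (XLOC_050894), a leading strand polymerase, was at 13.5 and 6.78 CPM against 3.86 and 1.65 CPM (1.93 ± 0.49, adjusted p = 0.0496). Wdhd1 (XLOC_017647), which links polymerase and helicase, was at 4.47 and 2.74 CPM against 1.25 and 0.198 CPM (2.46 ± 0.56, adjusted p = 0.0349). The loci named Mcm2 to Mcm7, subunits of the replicative helicase, missed the threshold. 9 of these 10 loci had an unadjusted p under 0.05, all above uncut larvae, none was called by edgeR, and the smallest adjusted p was 0.0516, for Mcm5 (XLOC_037485) at 9.81 and 7.20 CPM against 3.33 and 0.660 CPM. Mcm2_1 (XLOC_014406) was at 26.1 and 16.8 CPM against 11.2 and 2.57 CPM (2.07 ± 0.68, adjusted p = 0.108). Cdc7 (XLOC_026236), the kinase that fires origins, was at 0.04 ± 0.22.

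Orc1 and Cks1B fell among these loci. Orc1 (XLOC_066965), a subunit of the origin recognition complex, was at 11.0 and 35.3 CPM against 36.1 and 86.6 CPM, and it fell by 1.51 ± 0.24 on the log2 scale (adjusted p = 0.00856), as did its other locus by 1.44. Cks1B (XLOC_003706), a subunit of cyclin-dependent kinases, fell by 1.46 ± 0.34 (adjusted p = 0.0389), while the other loci of that name were at 0.86 and 1.42 and were not called.

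Of the cyclins and mitotic kinases, CycA, Cdk1, Cycb3, Cycb and Plk1 rose. CycA (XLOC_000842), cyclin A, was at 21.1 and 7.58 CPM against 7.79 and 1.25 CPM (2.00 ± 0.35, adjusted p = 0.0125). Cdk1 (XLOC_040695), the kinase of mitotic entry, was at 32.2 and 17.9 CPM against 19.9 and 4.29 CPM (1.34 ± 0.27, adjusted p = 0.0233). In both, replicate 1 of the uncut larvae lay above replicate 2 of the posterior fragments, so the groups overlapped although each posterior library exceeded the uncut library of its own number. Cycb3 (XLOC_035025), a cyclin of the B family, was tighter, at 29.8 and 28.2 CPM against 12.4 and 12.5 CPM (1.22 ± 0.23, adjusted p = 0.0165). Cycb (XLOC_033600) and Plk1 (XLOC_034514, at a locus that overlaps another), a mitotic kinase, were at the threshold with differences of 1.58 ± 0.40 and 1.62 ± 0.41. Cycb was at 8.94 and 5.01 CPM against 4.14 and 1.25 CPM. CycD (XLOC_030773), a cyclin of the growth phase before replication, was at 365 and 434 CPM against 773 and 439 CPM (-0.60 ± 0.32, adjusted p = 0.354). Smc4 (XLOC_075250), a condensin subunit, was at 64.6 and 31.3 CPM against 33.6 and 6.60 CPM (1.66 ± 0.41, adjusted p = 0.0446). Of 59 DNA repair loci 2 were higher (3.39%, against 1.1% of all tested loci), among them Fancd2_1 (XLOC_067004) by 1.83 ± 0.44, which was not called without replicate 1 or without replicate 2.

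**Figure D3:**
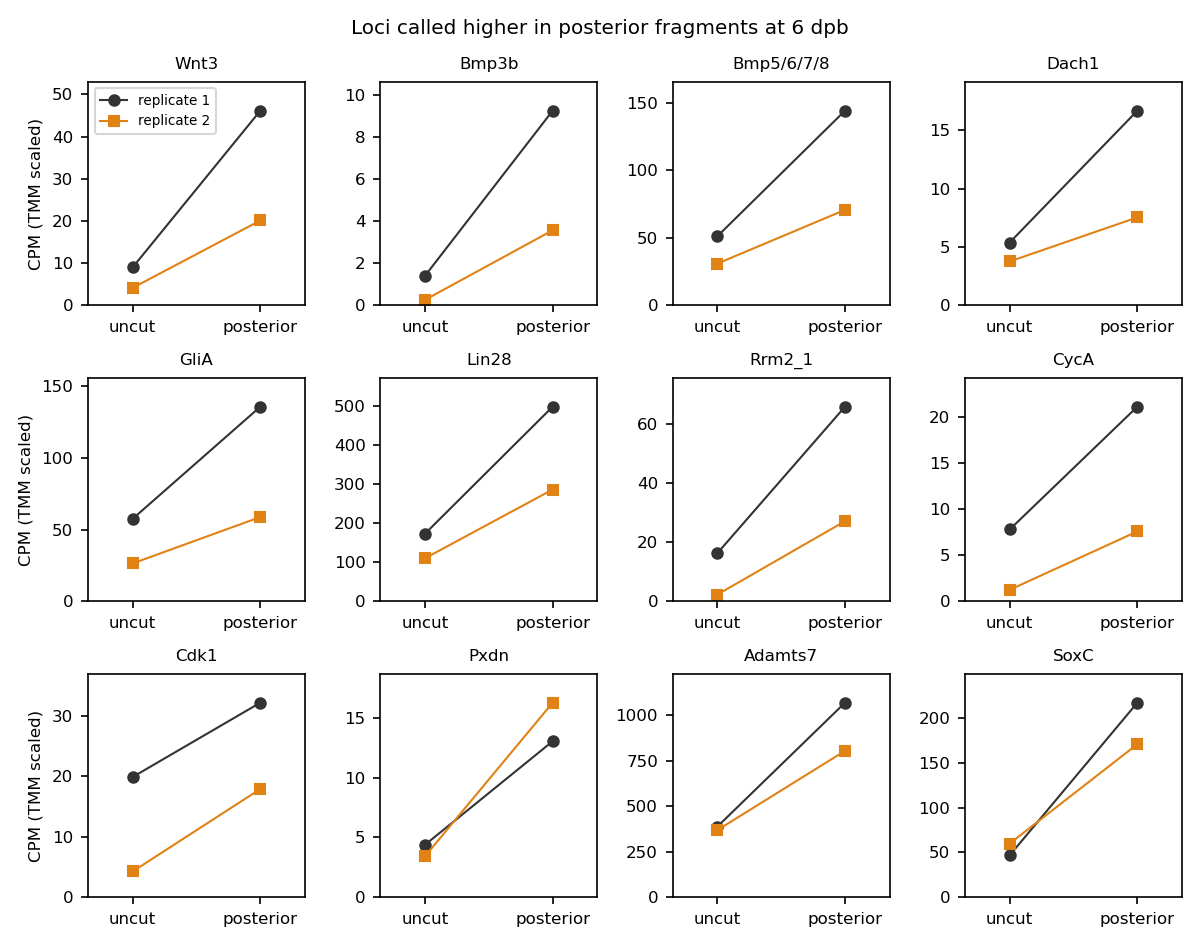
The plot shows TMM-scaled CPM (vertical axes, starting at 0) in uncut larvae and posterior fragments at 6 dpb for loci that were called higher, with each point a library and lines joining libraries of the same replicate number. Wnt3 goes from 9.01 and 4.16 to 46.1 and 20.1 CPM and Lin28 from 173 and 110 to 497 and 286 CPM, and in each panel both lines go up.

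BMP and TGF-beta signals, which pattern tissue and control growth, had 6 of 40 loci higher (15%, against 1.1% of all tested loci) and 0 lower by edgeR (2 lower at an unadjusted p under 0.05 and 1 by DESeq2), with a median of 0.49. Of the 6, 1 is Dach1, a transcriptional cofactor that is also in the list of late regulators, and the other 5 are ligands, a receptor and a modulator of these pathways. Bmp3b (XLOC_021605), a BMP family ligand, was at 9.27 and 3.58 CPM against 1.41 and 0.264 CPM. Both posterior values exceeded both uncut ones, and the difference of 3.06 ± 0.50 (8.33-fold, adjusted p = 0.00972) was the largest rise among the named loci that the naming rule took in. It had been -0.34 at 3 hpb and 1.08 at 3 dpb, and it changed by 3.40 since 3 hpb.

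Bmp5/6/7/8 (XLOC_045877), another ligand at a locus that overlaps another, was at 144 and 70.8 CPM against 51.2 and 31 CPM (1.34 ± 0.23, adjusted p = 0.0128). TgfbrtII (XLOC_055255), named after the type II TGF-beta receptor, was at 20.3 and 34.9 CPM against 9.24 and 10.6 CPM (1.43 ± 0.25, adjusted p = 0.0128). Tsg, twisted gastrulation, a secreted modulator of BMP ligands, was higher at both its loci, by 1.36 ± 0.27 at XLOC_005494, which overlaps another, and by 1.12 at XLOC_024895. Follistatin (XLOC_043063), a secreted inhibitor of activin, was at 10.6 and 8.80 CPM against 3.88 and 5.22 CPM and was not called (1.09 ± 0.38, adjusted p = 0.135), and Smad1 (XLOC_028633), which carries the BMP signal to the nucleus, was at -0.13 ± 0.27. None of the list's loci was called without replicate 1 or without replicate 2.

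A list of late regulators joined genes that the study names for its late cluster (Runt1, Cbfb, GliA, Dach1, Lin28, Lef1 and Z166) with Klf13, Myc, Vasa, Piwi and Piwil2, which were added here. All 18 of its tested loci lay above uncut larvae, with 4 called higher (22.2%, against 1.1% of all tested loci), 0 lower by edgeR (0 lower at an unadjusted p under 0.05 and 0 by DESeq2) and a median of 0.86. The study chose its genes on the same libraries, so their direction is not independent evidence, and all 4 called loci are of these genes. Lin28 was at 497 and 286 CPM in posterior fragments and at 173 and 110 CPM in uncut larvae, with no overlap, and differed by 1.45 ± 0.22 (2.73-fold, adjusted p = 0.00673) after 0.20 at 3 hpb and 0.37 at 3 dpb. In anterior fragments it was at 233 and 156 CPM. GliA (XLOC_075833), the transcription factor of Hedgehog signals, was at 135 and 58.7 CPM against 57.4 and 26.4 CPM (1.19 ± 0.19, adjusted p = 0.00883), and the other GliA locus rose as well. Dach1 (XLOC_015525), a transcriptional cofactor, was at 16.7 and 7.53 CPM against 5.38 and 3.76 CPM (1.34 ± 0.26, adjusted p = 0.0189). In anterior fragments GliA (XLOC_075833) was at 121 and 43.5 CPM and Dach1 at 12.9 and 4.98 CPM. Neither passed edgeR's test of posterior against anterior fragments (adjusted p = 0.393 and 0.285).

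Runt1 (XLOC_070476), a Runx family factor, was at 117 and 84.1 CPM against 15.6 and 51 CPM. Its replicate pairs differed unequally, by 2.90 and 0.72 on the log2 scale, and it was not called (1.74 ± 0.67, adjusted p = 0.173). Lef1 (XLOC_003096), a transcription factor of Wnt signals, was at 7.19 and 7.66 CPM against 4.09 and 4.49 CPM (0.80 ± 0.26, adjusted p = 0.104). None of the 4 calls held without replicate 1 or without replicate 2, where Lin28 had an adjusted p of 0.0913 and 0.0607. Hh_1 (XLOC_042119), a locus named for the Hedgehog ligand upstream of GliA, fell by 0.81 ± 0.20 on the log2 scale, from 192 and 169 CPM to 88.1 and 120 CPM (adjusted p = 0.0456). The other 3 loci of that name lay above uncut larvae, at 0.76, 0.80 and 0.96, and were not called, so the name as a whole had no common direction.

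The extracellular matrix and the proteases that cut it were higher at part of their loci. 7 of 59 matrix loci (11.9%) and 4 of 23 protease loci (17.4%) were higher, against 1.1% of all tested loci, and 0 in either list were lower by edgeR (1 and 2 at an unadjusted p under 0.05, and 0 and 0 by DESeq2), with medians of 0.64 and 0.25. Pxdn, the peroxidase that crosslinks collagen in basement membranes, was higher at 4 of its 5 loci, for example XLOC_067787 at 13 and 16.2 CPM against 4.39 and 3.43 CPM (1.87 ± 0.31, adjusted p = 0.0107). Its locus with the most counts, XLOC_046831, was at 658 and 540 CPM against 880 and 599 CPM (-0.28 ± 0.25) and was the 1 not called. Col26a1 (XLOC_037461), a collagen, rose from 78.6 and 61.4 to 154 and 178 CPM (1.24 ± 0.24, adjusted p = 0.0195). Hspg2 (XLOC_078576), perlecan, a proteoglycan of basement membranes, rose by 1.25 ± 0.28, and Fbn2L_1 (XLOC_017393), named after fibrillin, by 0.98 ± 0.23.

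Among the proteases, Adamts7 (XLOC_030241), a secreted metalloprotease, was at 1067 and 803 CPM against 388 and 369 CPM (1.28 ± 0.26, adjusted p = 0.0225). Mt5/MmpL3 (XLOC_057347), named after membrane-type matrix metalloproteases, was at 96.6 and 168 CPM against 14.9 and 59.1 CPM (2.1 ± 0.42, adjusted p = 0.0207), and had been higher at 3 hpb as well (2.50). The other 4 loci of that name were at -0.29, 0.13, 0.26 and 0.33 and were not called. Bmp1/TldL1 (XLOC_015919), of the tolloid proteases that free BMP ligands and trim procollagen, was at 5.63 and 12.7 CPM against 1.32 and 1.45 CPM (2.50 ± 0.39, adjusted p = 0.0079). Another locus of that name was called at 2.22, and the remaining one was at 0.34 and was not called. Without replicate 2 no matrix locus and 1 protease locus was called, and without replicate 1 there were 7 and 1.

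PapL2 (XLOC_047603) had 4 of its 5 loci among the loci that rose, with this one at 52.9 and 58.4 CPM against 10.3 and 5.55 CPM (2.93 ± 0.42, adjusted p = 0.00572). ThrombA1 (XLOC_038954) was at 9.09 and 8.63 CPM against 0.947 and 1.45 CPM (2.94 ± 0.44, adjusted p = 0.00659). Polq (XLOC_056011), a polymerase of DNA end joining whose locus overlaps another, was at 35.9 and 11.7 CPM against 5.34 and 3.04 CPM (2.39 ± 0.28, adjusted p = 0.00258). C1qL (XLOC_072165), named after complement C1q, was at 48.5 and 114.1 CPM against 9.80 and 29.6 CPM (2.12 ± 0.32, adjusted p = 0.00728).

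Genes that build ribosomes lay above uncut larvae at 106 of 112 loci with a median of 0.66, and 61 had an unadjusted p under 0.05, all of them higher. Only 4 were called (3.57%, against 1.1% of all tested loci), 0 without replicate 1 and 2 without replicate 2, while DESeq2 called 15. Dkc1 (XLOC_039467), the pseudouridine synthase of ribosomal RNA, was at 38 and 30.9 CPM against 18.6 and 15.1 CPM (1.03 ± 0.22, adjusted p = 0.0276). The proteins of the ribosome itself had 0 of 96 loci called by edgeR, 0 at an unadjusted p under 0.05 and 0 by DESeq2, with a median of 0.09. Rps2_1 (XLOC_069641) was at 3597 and 3134 CPM against 3005 and 2896 CPM.

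Among the 25 lists, that of cilia held the most loci called lower. Of 161 loci, 38 were lower (23.6%, against 3.3% of all tested loci) and 0 were higher by edgeR (2 at an unadjusted p under 0.05 and 1 by DESeq2), 132 lay below uncut larvae and the median was -0.75. The median had been -0.05 at 3 hpb and -0.37 at 3 dpb. The differences of the called loci ran from -1.21 to -0.78, and the groups did not overlap in 25 of the 38. In anterior fragments of the same age 75 of the 161 loci were higher than in posterior ones, as were 7.23% of all tested loci.

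FoxJ1 was at 41.1 and 77.1 CPM in posterior fragments, 84.4 and 174 CPM in uncut larvae and 111 and 213 CPM in anterior fragments. Each posterior value lay below both uncut ones, and the difference was -1.11 ± 0.21 (adjusted p = 0.0175) after 0.59 at 3 hpb and -0.62 at 3 dpb.

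Hydin, of the motile axoneme, fell with it. Hydin (XLOC_004985), a protein of the central pair, was at 19.3 and 27.9 CPM against 41.0 and 70.8 CPM (-1.21 ± 0.22, adjusted p = 0.0154), and all 4 loci of that name were lower. Over 23 loci of Hydin, the tektins, Efhc2, Spag6, Spag16, Spag17 and Armc4, a group put together after the values were seen, 18 were called lower and the differences ran from -1.21 to -0.77. Some loci of transport along the cilium were among the 38. Dync2h1_1 (XLOC_013115), the motor of return transport, was at 29.0 and 46.0 CPM against 56.6 and 111 CPM (-1.11 ± 0.21, adjusted p = 0.0187), and Ift88 (XLOC_063210), a transport particle subunit, at 64.4 and 95.4 CPM against 102 and 201 CPM (-0.87 ± 0.19, adjusted p = 0.0294). Wdr35 (XLOC_056213), of the same particles, fell by 0.99 ± 0.20 on the log2 scale.

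Heavy chains of the motors that bend the cilium were not called, with Dnah9 (XLOC_074614) at 264 and 314 CPM against 412 and 364 CPM (-0.43 ± 0.28, adjusted p = 0.456) and Dnah5_1 (XLOC_002769) at 180 and 253 CPM against 327 and 329 CPM (-0.63 ± 0.27, adjusted p = 0.23). The calls of the cilium list depended on the settings. Scaling by library size alone, which moved the median of all tested loci from 0.02 to 0.15, gave 7 lower loci, without replicate 1 or without replicate 2 there were 0, and DESeq2 called 72.

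**Figure D4:**
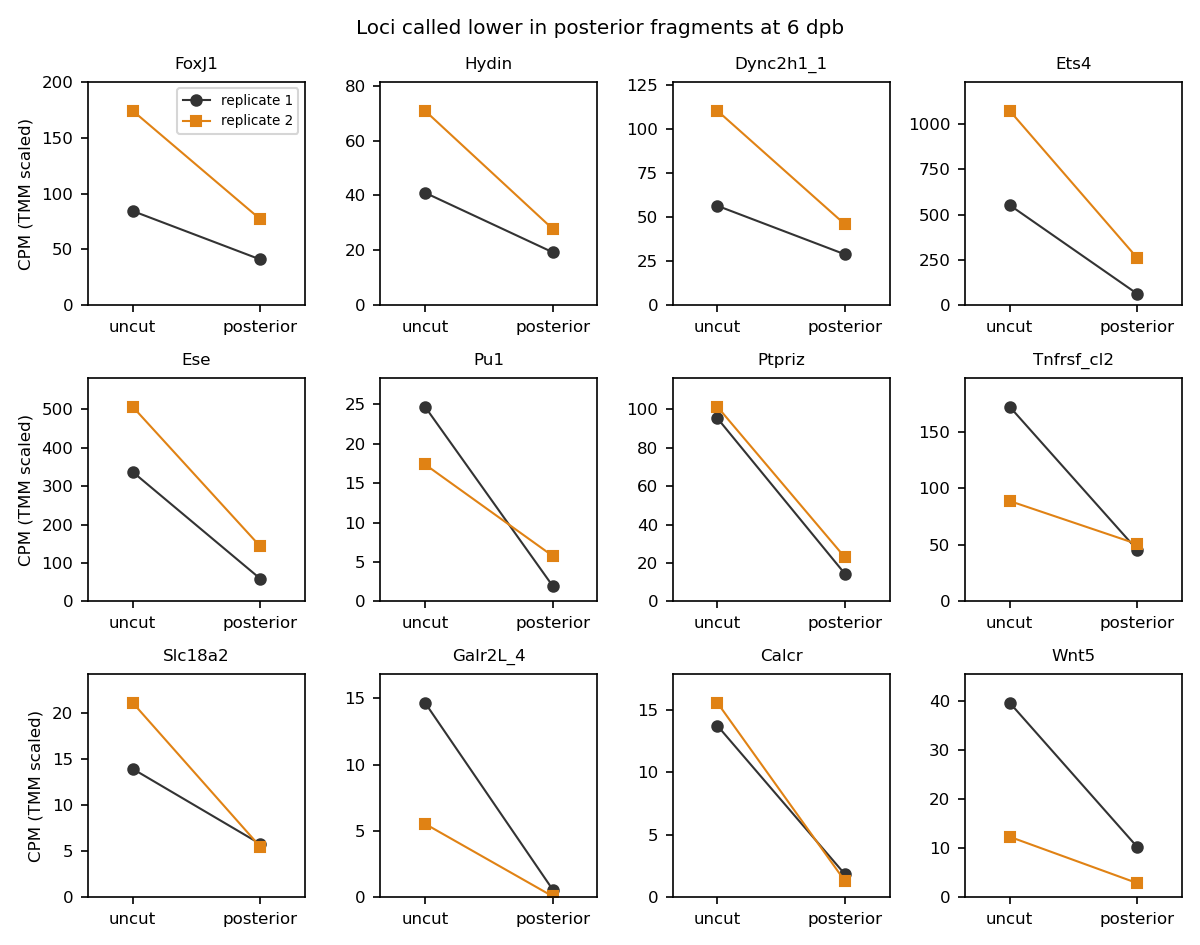
The plot shows TMM-scaled CPM (vertical axes, starting at 0) in uncut larvae and posterior fragments at 6 dpb for loci that were called lower, with each point a library and lines joining libraries of the same replicate number. FoxJ1 goes from 84.4 and 174 to 41.1 and 77.1 CPM and Galr2L_4 from 14.7 and 5.55 to 0.596 and 0.0842 CPM, and in each panel both lines go down.

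Transcription factors with an Ets domain, some of them induced by wounds, were called lower at 7 of 15 loci (3.3% of all tested loci were) in a group put together after the values were seen. Its median was -0.17. Ets4 (XLOC_048797) was at 63.6 and 261 CPM against 553 and 1073 CPM, with groups well apart (-2.64 ± 0.39, adjusted p = 0.00659), after 1.10 at 3 hpb and 0.65 at 3 dpb. Ese (XLOC_022395) was at 59.0 and 143 CPM against 337 and 507 CPM (-2.19 ± 0.31, adjusted p = 0.00575), and the other Ese locus was at -0.16 ± 0.24. Pu1 (XLOC_071170), a factor of blood and immune cells in vertebrates, was at 1.97 and 5.77 CPM against 24.7 and 17.4 CPM (-2.63 ± 0.39, adjusted p = 0.00673). Elk (XLOC_056411), which answers growth factor signals, fell by 1.68 ± 0.29 on the log2 scale, with its other locus lower by 1.51, after 0.94 at 3 hpb. Elk supplied both calls of the early wound list, 2 of 33 loci lower (6.06%, against 3.3%). The median of that list had been 0.91 at 3 hpb and was -0.13 at 6 dpb. The replicate pairs lay on opposite sides at 6 dpb, with list medians of 0.27 in pair 1 and -0.63 in pair 2. Jun (XLOC_060658), an immediate early factor, was at 426 and 495 CPM against 389 and 855 CPM (-0.32 ± 0.34, adjusted p = 0.69).

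Of 48 apoptosis loci 5 were lower (10.4%, against 3.3% of all tested loci) and 0 were higher by edgeR (0 at an unadjusted p under 0.05 and 0 by DESeq2), with a median of -0.02. These were all 4 loci of Traf6, an adaptor of TNF and Toll-like receptor signals, at -1.33 to -1.61, and Tnfrsf_cl2 (XLOC_038122), a TNF receptor family locus, at 45.4 and 50.7 CPM against 172 and 88.7 CPM (-1.36 ± 0.25, adjusted p = 0.016). Without replicate 1 none of these was called. Among 143 innate immune loci, 5 were lower (3.50%, close to the 3.3% of all tested loci) and 1 was higher. Srcr28 (XLOC_021349), a scavenger receptor, was at 1.10 and 0.842 CPM against 13.4 and 3.24 CPM (-2.89 ± 0.36, adjusted p = 0.00316), 1 of the 2 lower loci among 33 of that name. Autophagy loci had 0 of 41 called by edgeR, 6 lower and 0 higher at an unadjusted p under 0.05, and 3 lower by DESeq2, with a median of -0.11. Gabarap (XLOC_036937), which tags the membranes of autophagosomes, was at 401 and 276 CPM against 531 and 520 CPM (-0.65 ± 0.23, adjusted p = 0.139).

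The falls of Mt1-4/MmpL3 and Astacin5, among the 12 largest of the naming rule, rested on 1 library of uncut larvae. Mt1-4/MmpL3 (XLOC_042106), named after membrane-type matrix metalloproteases, had 0 and 2 counts in posterior fragments and 5 and 318 in uncut larvae, a ratio of 158 with a 95% counting interval of 43.5 to 1313, and without replicate 2 the difference of -4.43 was not called (adjusted p = 0.61). Astacin5 (XLOC_018004), a secreted metalloprotease, was at 0.179 and 0.589 CPM against 0.185 and 25.6 CPM, and without replicate 2 its difference was -0.05. Anxa7 (XLOC_016975), a membrane-binding annexin, was low in both replicates, at 1.64 and 3.45 CPM against 43.9 and 25.9 CPM (-3.68 ± 0.59, adjusted p = 0.00891). Nbas (XLOC_005734), a vesicle tethering factor, was at 2.27 and 3.66 CPM against 15.6 and 25.2 CPM (-2.78 ± 0.43, adjusted p = 0.00789), and the other 3 loci of that name were not called.

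Loci of the gut, of muscle and of metabolism held few calls. Of 62 digestive enzyme loci, 1 was lower (1.61%, against 3.3% of all tested loci). By edgeR 0 were higher (3 at an unadjusted p under 0.05 and 0 by DESeq2), and the median was 0.20. Against anterior fragments 30 were higher in posterior fragments, as were 5.68% of all tested loci. The lower one was Prss7 (XLOC_066946), named after enteropeptidase, at 10.02 and 15.6 CPM against 36 and 53.3 CPM (-1.81 ± 0.35, adjusted p = 0.0193). None of 24 muscle loci was called by edgeR, at an unadjusted p under 0.05 or by DESeq2. 1 of 128 loci of mitochondrial respiration (0.78%) and 1 of 77 heat shock loci (1.30%) were lower, against 3.3% of all tested loci. The medians were 0.11 and 0.03, and that of the heat shock loci was 0.57 in replicate pair 1 and -0.55 in pair 2. Of 485 transporter loci 20 were lower (4.12%, against 3.3% of all tested loci) and 1 was higher, among them Slc44a2 (XLOC_034905), named after a choline transporter, at 122 and 194 CPM against 290 and 456 CPM (-1.24 ± 0.20, adjusted p = 0.00905).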

How the data were processed

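RNA from pools of uncut larvae, anterior fragments and posterior fragments of P. miniata was sequenced in 18 libraries, 2 for each of 9 groups. Groups and replicate numbers were taken from the labels. Per the labels and the study's methods, the authors used Trimmomatic for trimming, TopHat2 2.0.12 for mapping to P. miniata v1.0 and Cufflinks 2.2.1 to define loci, and deposited raw counts per locus from HTSeq 0.6.1p1 (versions from the submitters' processing notes). In a table of the authors, log2 fold changes of fragments were left unused and only the names of loci were read. Loci without a name keep their identifier. Of 80165 loci in the files, 31798 had more than 3 CPM in at least 2 libraries and were tested, 14558 of them with a gene name and 11 more through a Nanostring probe. Reads outside loci (2.37 to 3.65% per library) and reads on more than 1 locus (6.12 to 8.74%) stayed out of library sizes.

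Differences were tested with R 4.3.3 and edgeR 4.0.16, with TMM factors and a quasi-likelihood model over the 18 libraries. Its terms were the 9 groups and, within each time point, a block for the replicate number, which left 6 residual degrees of freedom. F tests were made of posterior fragments against uncut larvae at 6 dpb, of the change of that difference since 3 hpb, and of posterior against anterior fragments at 6 dpb. The first 2 share libraries of posterior fragments and uncut larvae at 6 dpb. Same-numbered libraries deviated together within a time point (r = 0.742 to 0.916 across loci for 9 pairs of groups, 0.771 for uncut larvae and posterior fragments at 6 dpb) and less so between time points (0.179 to 0.675), so the numbers were taken to mark a shared batch of a time point. That batch is not described further in the labels, which call the replicates biological. With 2 libraries a group, precision rests on the spread shared across loci and groups. Groups with 3 counts or fewer were compared as a ratio of summed counts per library size with an exact 95% interval.

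The named loci were the 45 matched of 48 genes that the study names for the axis and the late clusters, in each list up to 4 called loci with the smallest p and the 2 others with the highest mean level, and the 12 largest rises and 12 largest falls in the same direction in both pairs, 158 in all. Where loci share a name, the probe's locus was used, otherwise that with the highest mean count. Lists are patterns on the authors' gene names. The fit, the lists and the members were chosen with earlier results of these data known, and lists were described by counts and medians beside all tested loci, without a test of their own. Values of some of these loci are not reported here.

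The procedure was tested on simulated data in which 200 of 31798 loci were changed between posterior fragments and uncut larvae at 6 dpb. The counts were simulated from the fit with its replicate block, so the simulation cannot check whether that block is right. The changed loci were drawn from those above a minimum mean count. edgeR recovered 8% of the 2-fold and 87% of the 4-fold changes and called 4 unchanged loci, and DESeq2 recovered 31% and 90% and called 36. Alternatives changed 1 choice at a time: DESeq2 1.42.0 size factors or library size alone, no filter or 1 CPM, DESeq2's Wald test, no block or a block common to all time points, fewer libraries, either replicate left out, and other call rules. Tables were made with pandas 2.3.3 under Python 3.11.15, and plots with matplotlib 3.10.9.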

Additional observations from a re-analysis of the deposited data

Results flagged for a closer look

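The difference between posterior fragments and uncut larvae at 6 dpb was other than that at 3 hpb at 1707 loci (5.37% of those tested), and posterior fragments differed from anterior fragments of the same age at 4106 loci (12.9%), both by edgeR's test of the difference itself. The first comparison shares its 6 dpb libraries with the report's main comparison, and all values here are log2 differences.

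Among the genes of the axis and late clusters, 14 changed relative to uncut larvae between 3 hpb and 6 dpb, all upward. The anterior genes did so by 3.66 for Rx, 3.11 for Frizz5/8, 2.83 for Lhx2/9, 2.48 for Dkk1, 2.42 for Zic, 2.30 for Nkx2.1 and 1.52 for Six3. The division genes did so by 3.02 for Psf3, a subunit of the replicative helicase complex, 2.95 for Rrm1 and 2.46 for Plk1. The late regulators did so by 3.40 for Bmp3b, 1.89 for Tsg, 1.37 for Z166 and 1.25 for Lin28.

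Against anterior fragments at 6 dpb, 24 of the 45 matched genes differed by edgeR's test, and 23 are listed here. The anterior genes were lower in posterior fragments, with values of -2.34 for Zic, -2.04 for Rx and -2.01 for Frizz5/8. Lhx2/9 was at -1.96, Nkx2.1 at -1.76 and Six3 at -1.33. The Wnt5 locus that matches the wnt4 probe was lower too, at -2.64, while the other locus of that name was higher by 2.44. The posterior genes were higher, by 6.42 for Hox11/13a, 6.18 for Lox, 4.99 for Wnt16, 4.95 for Frizz9/10, 3.93 for Cdxl, 3.51 for Hox11/13b, 3.50 for Eve, 3.24 for Nk1, 2.76 for Wnt3, 2.39 for Bra and 1.92 for GataC. Rrm1, Plk1 and Cycb of division were higher in posterior than in anterior fragments as well, by 1.76, 1.55 and 1.43. So were Bmp3b and Lin28 of the late phase, by 1.54 and 0.98. In the list of late regulators 1 of 18 loci was higher than in anterior fragments and 0 were lower, where 5.68% of all tested loci were higher. Lef1 and Z166 lay on the other side, at -0.51 and -0.44, and were not called.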

How the results depend on the processing

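The counts of called loci depended on how replicates were handled. The 4 counts were 350 higher and 1049 lower in posterior fragments than in uncut larvae, 1707 changed since 3 hpb and 4106 different from anterior fragments. Without the replicate block they were 0, 2, 0 and 628, with 659 loci of the first comparison and 1038 of the change since 3 hpb at an unadjusted p under 0.05, and with a replicate block common to all time points 0, 2, 0 and 1377. The common dispersion was 0.0475 with the block within time points, 0.146 with the common block and 0.341 with none. With the libraries of the compared time points only they were 1, 16, 241 and 2627, and with the 4 compared libraries only there were 0 higher and 0 lower (4555 at an unadjusted p under 0.05). Leaving out a replicate gave 87 to 105 higher, 213 to 336 lower, 134 to 5180 changed since 3 hpb and 1390 to 2818 different from anterior fragments.

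DESeq2's Wald test called 705, 1860 and 2967 in the first 3. Without a filter there were 699 higher and 1724 lower. Under an unadjusted p under 0.05 with more than a 2-fold change there were 1057, 1629 and 6018. Scaling by library size alone gave 539 lower, and 3052 changed since 3 hpb, 2549 of them upward in place of 662. It moved the median of all tested loci from 0.02 to 0.15 for posterior fragments against uncut larvae, and from 0.01 to 0.52 for the change since 3 hpb, so directions are given relative to these medians. The cause was not tested for any of these.

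Of the 79 called among the 158 named loci, all kept their sign under the 10 alternatives that refit them. 76 remained called with DESeq2 size factors, 64 with library size alone, 77 without a filter, 77 above 1 CPM, 79 with DESeq2's test, 1 without the block, 1 with the common block, 5 with the compared time point only, 26 without replicate 1 and 23 without replicate 2. Depth limits the low loci, such as the GABA receptors, to a counting interval, and 2 libraries a group leave most 2-fold changes below the threshold in simulations.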

Other observations

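The loci of Ptpriz, plexin A and Acly_2 were chosen after their values were seen, and 3.3% of all tested loci were lower. Ptpriz, named after a receptor tyrosine phosphatase, was lower at 11 of 19 loci with a median of -1.75, for example XLOC_022971 at 14.3 and 22.9 CPM in posterior fragments against 95.4 and 101 CPM in uncut larvae (-2.46 ± 0.30, edgeR adjusted p = 0.00316). Loci under 7 names of plexin A, a receptor of guidance cues, were lower at 5 of 21, and their median of -0.19 lay nearer to that of all tested loci (0.02). Acly_2, named after ATP citrate lyase, which supplies carbon for lipid synthesis, was lower at 3 of its 4 loci, with XLOC_033206 at 7.33 and 50.0 CPM against 73.9 and 226 CPM (-2.74 ± 0.43, adjusted p = 0.00807) after 1.08 at 3 hpb and 1.79 at 3 dpb. Whether loci that share a name are parts of 1 gene was not tested, so these are not counts of independent genes.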
